A study of Homo sapiens with 4 samples.

Results

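MT-CO1 (listed as COX1, gene ID 4512) is the mitochondrial gene for the core subunit of cytochrome c oxidase, and its mRNA was followed base by base with dimethyl sulfate (DMS). DMS methylates adenine and cytosine that are not held in base pairs. The reverse transcriptase TGIRT-III reads through the methyl group and leaves a mismatch there, so that the share of mismatches at a position measures its reactivity. The mRNA was taken as all positions from 5903 to 7444 of the heavy-strand files, which hold the coding region of 1542 nt, plus a 3′ stretch of 72 nt from 7445 to 7516. The files' numbering is that of the mitochondrial reference minus 1 beyond position 3106, and the gene table of GRCh38.p14 places MT-CO1 at 5904 to 7445. Below, positions are counted in nt from the first base of the coding region, with the base before the number (C1260 is the C at nt 1260). The mRNA held 929 A or C positions of 10265 in the heavy-strand file, 882 of them in the coding region and 47 in the 3′ stretch. Tested positions had a mean mismatch over the 4 libraries between 0.2% and 30%, which kept 877 coding positions (416 A and 461 C) and 45 of the 3′ stretch. Of the remaining 7 positions, 6 lay under the lower limit and 1 above the upper limit. No A or C of the mRNA was listed at 0.

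The cells were HEK-293T, an established line from human embryonic kidney that one label field calls HEK 293. Their mitochondria were treated after isolation with 1% DMS for 5 min at 37 °C. The wild-type group (WT) and the group lacking LRPPRC (knockout) had 2 bioreplicates each and shared the cell line, the isolation and the DMS treatment. Whether the knockout line is 1 clone is not given in the sources used here, LRPPRC's own transcript was not analysed here, and neither was an untreated library. The files hold fractions without read counts, so the depth behind each value is unknown. Each ± gives the SD of both libraries in a group, and SE is limma's.

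Mitochondrially encoded mRNAs are cut out of long transcripts of the heavy strand, and most of them begin at or next to the start codon, with no cap. MT-CO1 is the subunit on which cytochrome c oxidase (complex IV) is built, and it holds the heme and copper centres where oxygen is reduced. LRPPRC, together with its partner SLIRP, binds these mRNAs and is known for keeping them stable, polyadenylated and available for translation. The 3′ stretch of the MT-CO1 mRNA runs antisense to TRNS1, a serine tRNA of the light strand, which covers 69 of its 72 nt.

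The stretches on which the results turn are printed 5′ to 3′ in DNA letters from the base column of the files, on the heavy-strand transcript, with coordinates in the files' numbering. In the first 2 lines, capitals mark the arms of a predicted stem of 6 base pairs with a loop of 27 nt (nt 1225 to 1230 and nt 1258 to 1263). This stem was chosen after its values were seen, as the one with the highest ratio of knockout to wild type.
Long-loop stem, 5′ arm, MT:7121-7138: caaaccTACGCCaaaatc
Long-loop stem, 3′ arm, MT:7154-7177: ttcatcGGCGTAaatctaactttc
The next 3 lines are the hairpins of at most 30 nt with the highest mean pairing probability in a fold from sequence alone, chosen without the mismatch values, with stem arms in capitals.
Hairpin at nt 653, MT:6555-6579: CCTTCTTCGaccccgcCGGAGGAGG
Hairpin at nt 1464, MT:7366-7381: CTCCAtaaaccTGGAG
Hairpin at nt 450, MT:6352-6366: ACACCTagcAGGTGT
The stems with the lowest ratio of knockout to wild type, chosen after their values were seen, were a hairpin in the 3′ stretch and, among stems wholly in the coding region, a pair of distant arms.
Hairpin at nt 1591, MT:7489-7509: acccCATGGcctCCATGactt
Stem at nt 477, 5′ arm, MT:6373-6390: tatcttAGGGGCcatcaa
Stem at nt 477, 3′ arm, MT:6439-6456: ccaaacGCCCCTcttcgt
The ends of the coding region are shown with the start codon and the AGA stop codon in capitals.
Coding start, MT:5903-5932: ATGttcgccgaccgttgactattctctaca
Coding end, MT:7430-7456: tacataaaatctAGAcaaaaaaggaag

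The MT-CO1 coding region carried fewer mismatches at A and C in the knockout than in wild type. The mean over the 877 tested positions was 3.24% and 3.20% in the wild-type libraries and 2.36% and 2.37% in the knockout libraries. The groups did not overlap, and the means of 3.22% ± 0.028 (SD, n = 2) and 2.37% ± 0.0034 (SD, n = 2) differed by -0.85 percentage points, many times the spread between replicates. The two-sided exact permutation test gave p = 0.333, the smallest possible with 2 libraries against 2, and 0.389 after Benjamini-Hochberg adjustment over 7 such values. Cytosine and adenine did not move alike, here or in the other heavy-strand mRNAs. The mean at C was 3.54% and 3.49% in wild type, against 2.39% and 2.41% in the knockout. The mean at A was 2.90% and 2.88% in wild type, against 2.33% and 2.32% in the knockout. C was the more reactive base in wild type and stood close to A in the knockout: the mean log2 level at C minus that at A was 0.14 ± 0.006 in wild type, against -0.07 ± 0.010 in the knockout (n = 2 each; exact permutation p = 0.333, adjusted 0.389).

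G and T positions served as background. The mean at G was 0.37% ± 0.029 in wild type, against 0.40% ± 0.016 in the knockout (n = 2 each), and the mean at T was 0.85% ± 0.026 and 0.72% ± 0.005. The A and C mean was 4.83 ± 0.15 times the G and T mean in wild type, against 3.94 ± 0.012 times that in the knockout. Across the tested coding positions, Pearson's r was 0.998 between the wild-type libraries, 0.994 between the knockout libraries and 0.895 to 0.901 between libraries of different groups. Positions of one mRNA share library and depth, so these coefficients describe agreement only.

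Reactivity fell over most of the heavy strand, so changes were also expressed relative to it. Values were taken as log2(fraction + 0.001), which understates changes at low positions, and centred on each library's median over all 9910 tested heavy-strand positions. That median differed by -0.63 between knockout and wild type. Relative to the median, the MT-CO1 gene mean was 0.25 higher in the knockout (SE 0.008, limma adjusted p = 1.71e-05), whereas without centring it fell by 0.38 (SE 0.012, limma adjusted p = 1.64e-06). Of the 28 heavy-strand genes, 78.6% were called higher and 3.57% lower after centring, and 71.4% lower without it, a call being an adjusted p under 0.05 in limma.

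Among the 12 heavy-strand mRNAs, MT-CO1 had the smallest fall. Changes without centring ran from -0.90 in ND4, a complex I subunit, to -0.38 in MT-CO1. The 3 mRNAs closest to it by that change, over 4 libraries, were COX2 (-0.42, SE 0.011), ATP8 (-0.43, SE 0.015) and ND3 (-0.47, SE 0.017). COX2 is the complex IV subunit that takes electrons from cytochrome c, ATP8 belongs to the ATP synthase and ND3 to complex I. COX3, the remaining complex IV subunit encoded in mitochondria, fell by 0.63 (SE 0.013). Relative to the median, MT-CO1 and COX2 (0.21) were called higher and COX3 was not called (0.002, limma adjusted p = 0.838). Of the 9 mRNAs outside complex IV, 7 were called higher, 1 lower and 1 was not called, and all 9 were called lower without centring. The level of MT-CO1 relative to the other 11 mRNAs, which needs no centring, was -0.13 and -0.14 in the wild-type libraries and 0.02 and 0.03 in the knockout libraries on the log2 scale (exact permutation p = 0.333, adjusted 0.389).

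MT-CO1 had the lowest wild-type mean of these mRNAs, 3.22% ± 0.028 (n = 2), next to ND4L with 3.29% ± 0.045 and ND3 with 3.33% ± 0.049. Its libraries (3.24% and 3.20%) lay just under those of ND4L (3.33% and 3.26%). In the knockout, MT-CO1 stood seventh. Its wild-type mean at C was also the lowest of the 12, at 3.51%, against 4.54% in ND4. The fall at C was the smallest of the 12 on the log2 scale (-0.48), and the fall at A (-0.27) came next to that of COX2 (-0.24). ND4, which had the highest C mean in wild type, had the lowest in the knockout (2.07%), against 2.40% in MT-CO1.

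**Figure D1:**
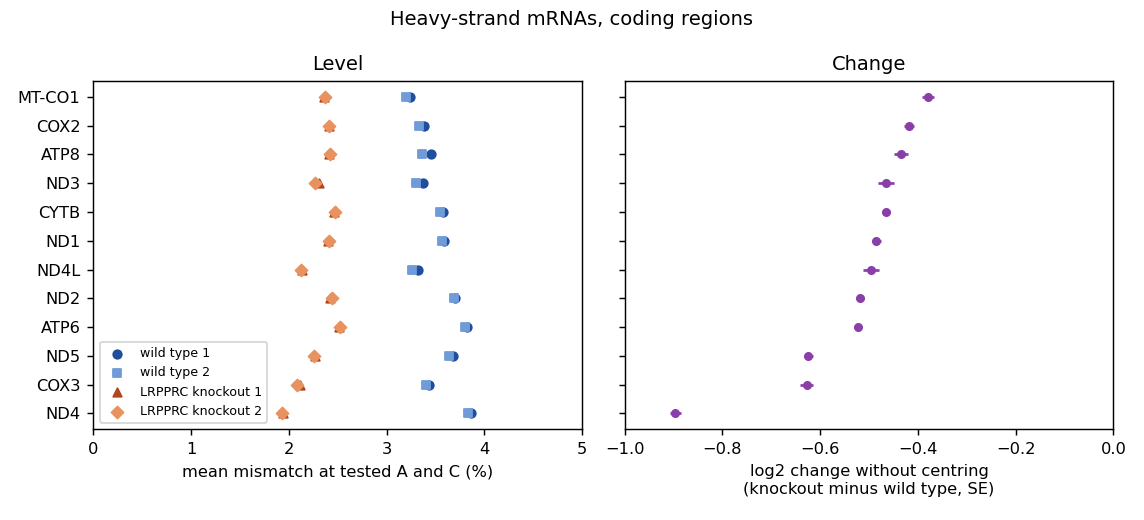
Left, the mean mismatch (%) at tested A and C of the coding region of each heavy-strand mRNA, with a marker per library; right, the log2 change without centring (knockout minus wild type) with its limma SE. MT-CO1, at the top, has wild-type libraries at 3.24% and 3.20% and the smallest fall, -0.38.

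The mismatch fractions, with background left in, were also spread more evenly along MT-CO1 in the knockout. The Gini index of the fractions, which is 0 when all positions are equal and nears 1 when a few hold all of the signal, fell from 0.269 ± 0.0016 to 0.241 ± 0.0011 (change -0.028, SE 0.002, limma adjusted p = 0.00353). Of the heavy-strand genes, 42.9% were called lower by this index. These were the 12 heavy-strand mRNAs, and no rRNA or tRNA was among them. Among the mRNAs the index changed by -0.013 in COX2 to -0.057 in ND4L, and the MT-CO1 change of -0.028 lay between these. No setting removed the background for this index, and over all alternatives the MT-CO1 change ran from -0.029 to -0.012. Without knockout replicate 1 the change was -0.027 and no longer called (limma adjusted p = 0.0516). The median C position went from 3.53% in wild type to 2.37% in the knockout, and the median A position from 2.99% to 2.41%. The 5th and 95th percentiles of C were 0.66% and 6.46% in wild type, against 0.64% and 4.50% in the knockout. The upper percentile at C thus fell by more than the lower one.

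Along the mRNA, wild-type reactivity had hills and valleys that the knockout followed in part, on a lower level. In 32 windows of 50 nt the wild-type mean ran from 2.15% to 4.07% and the knockout mean from 1.72% to 2.77%. The knockout libraries lay below the wild-type libraries in all 32 windows. The order of the windows differed between groups. In the knockout the highest window was nt 601 to 650 (2.77%) and the lowest nt 1551 to 1600 in the 3′ stretch (1.72%). These stood at 3.91% and 3.09% in wild type. The highest wild-type window was nt 551 to 600, with 4.11% and 4.03% in wild type, against 2.46% and 2.49% in the knockout. The windows at nt 1251 to 1300 and nt 601 to 650 came next, with means of 4.01% and 3.91% in wild type. The lowest was nt 801 to 850, where wild type read 2.17% and 2.13% and the knockout 1.99% and 1.95%. Windows at nt 51 to 100 (2.42%) and nt 1001 to 1050 (2.54%) were the other low ones. These low windows had mean predicted unpaired probabilities between 0.469 and 0.502, and the 3 high windows between 0.717 and 0.816. Over all 32 windows the rank correlation (Spearman's rho) of mean mismatch with this probability was 0.693 in wild type, against 0.478 in the knockout. The window with the lowest probability, nt 1151 to 1200 (0.431), was not among the 3 low ones. That with the highest, nt 501 to 550 (0.858), was not among the 3 high ones.

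**Figure D2:**
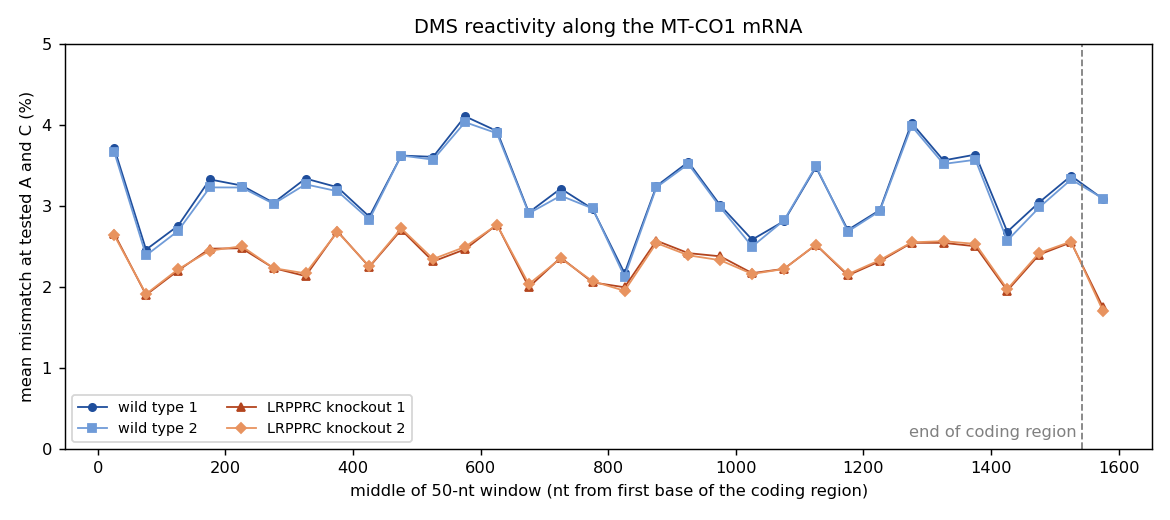
Mean mismatch (%) at tested A and C in 50-nt windows along the MT-CO1 mRNA, by the middle of the window in nt from the first coding base, with a line per library and a dashed line at the end of the coding region. Wild-type windows lie between 2.15% and 4.07% and knockout windows between 1.72% and 2.77%, with replicates nearly on top of each other.

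Relative to the heavy-strand median, 29 of the 32 windows were called higher in the knockout and 1 lower (limma adjusted p under 0.05), against 60.6% and 25.8% of all heavy-strand windows. Without centring, 0 were called higher and 31 lower, against 2.12% and 89.7% of all windows. Centred on the MT-CO1 coding median instead, 16 were called higher and 11 lower, against 27.6% and 57.9%. The 3 low windows were also those that rose most after centring: 0.63 (SE 0.024) at nt 801 to 850, 0.46 (SE 0.030) at nt 51 to 100 and 0.45 (SE 0.018) at nt 1001 to 1050, and without centring the last 2 fell by 0.17 and 0.18. Without centring the window at nt 801 to 850 stood at 0.0004 (SE 0.025, limma adjusted p = 0.988). The window that fell was nt 1551 to 1600 in the 3′ stretch, from 3.09% in both wild-type libraries to 1.75% and 1.70% in the knockout (-0.15 after centring, -0.78 without).

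**Figure D3:**
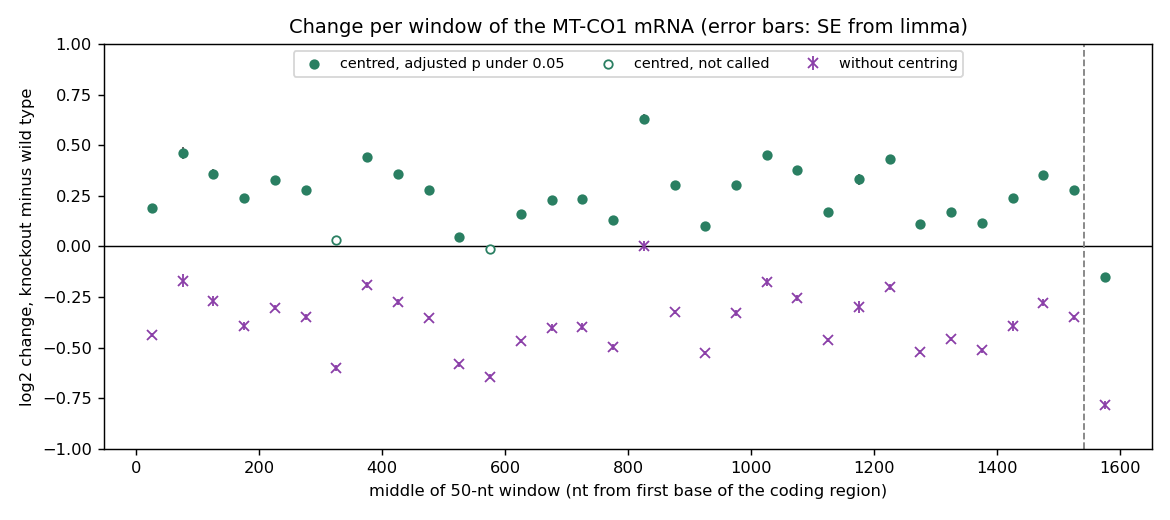
Log2 change (knockout minus wild type, with limma SE) of each 50-nt window by its middle in nt from the first coding base, after centring (circles) and without it (crosses). After centring, 29 of 32 windows are called above 0 and the window beyond the dashed end of the coding region is called below it; without centring 31 are called below 0.

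Of the 877 coding positions, 594 were called higher and 115 lower relative to the median, which is 67.7% and 13.1%, against 44.9% and 26.6% of all heavy-strand positions (limma adjusted p under 0.05). The bases differed in their counts, with 355 of 416 A positions higher and 8 lower, and 239 of 461 C positions higher and 107 lower. The shares over the heavy strand were not split by base. Without centring C fell by more than A in all 12 mRNAs, so this difference was not particular to MT-CO1. The falls at C and A were -0.48 and -0.27 in MT-CO1, -0.69 and -0.33 in ND2, and -0.72 and -0.52 in COX3. Without centring 48 coding positions were called higher and 696 lower, against 4.73% and 78.3% of all positions. Centred on the MT-CO1 coding median they were 328 and 249, against 23.2% and 42.4%. In percent mismatch, the libraries of both groups did not overlap at 831 of 877 positions (94.8%, against 92.1% of all tested heavy-strand positions). The knockout was below at 754 of these (84.6% over the heavy strand) and above at 77 (7.45% over the heavy strand).

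The most reactive tested positions in wild type behaved differently from each other. C365, which the fold from sequence alone pairs, read 10.42% and 10.37% in wild type, against 8.25% and 8.45% in the knockout. It was 0.32 higher after centring (SE 0.034, limma adjusted p = 0.0015) and fell by 0.31 without it. A1270 read 10.20% in both wild-type libraries and 2.71% and 2.69% in the knockout, a change of -1.25 after centring (SE 0.022, limma adjusted p = 8.97e-05). C495 went from 9.29% and 9.19% to 3.74% and 3.78% (-0.65 after centring, SE 0.023). A1270 and C495 have predicted unpaired probabilities of 0.990 and 0.994, against 0.217 for C365.

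The clearest local departure from the general fall was the predicted long-loop stem printed first above. All 6 of its tested A and C positions were higher in the knockout, both in percent mismatch and after centring. Over all tested heavy-strand positions, 7.45% lay above wild type in percent mismatch and 44.9% were called higher after centring. The stem mean was 0.63% and 0.60% in the wild-type libraries and 1.31% and 1.28% in the knockout libraries, a ratio of 2.10. C1260, in the 3′ arm, rose from 0.69% and 0.62% to 1.92% in both knockout libraries, the largest rise among called positions of the mRNA (2.05 after centring, SE 0.078, limma adjusted p = 0.000174; 1.42 without centring). C1230 rose from 0.60% and 0.58% to 1.62% and 1.60%, and its neighbour C1229 from 0.60% and 0.58% to 1.59% and 1.52%. These 3 positions rose in both scalings, so the direction at the inner side of the stem did not depend on the centring. A1226 and C1227, toward the outer end of the 5′ arm, rose less, by 1.05 and 1.30 after centring, and A1263, the outermost position, by 0.82.

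Loop positions of the same element moved the other way in percent mismatch. Over the 17 tested loop positions the mean was 3.80% and 3.78% in wild type, against 2.99% and 3.01% in the knockout. In percent mismatch 16 of the 17 positions were lower in the knockout. After centring the loop moved the same way as the stem, with 15 of the 17 positions called higher and 1 lower. Over the coding region 67.7% were called higher and 13.1% lower on that scale, and over the heavy strand 44.9% and 26.6%. Just 3′ of the stem, A1270 fell as given above while C1271 beside it rose from 2.15% and 2.12% to 3.96% and 3.73% (1.45 after centring, SE 0.038, limma adjusted p = 0.000119). C1224, the base before the 5′ arm, went from 4.06% and 4.16% to 1.60% and 1.74%. In this stretch the knockout thus had higher stem positions, lower flanking positions at C1224 and A1270, and a higher C1271. The stem has a mean pairing probability of 0.761 from sequence alone, below that of the hairpins at nt 653, 1464 and 450.

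**Figure D4:**
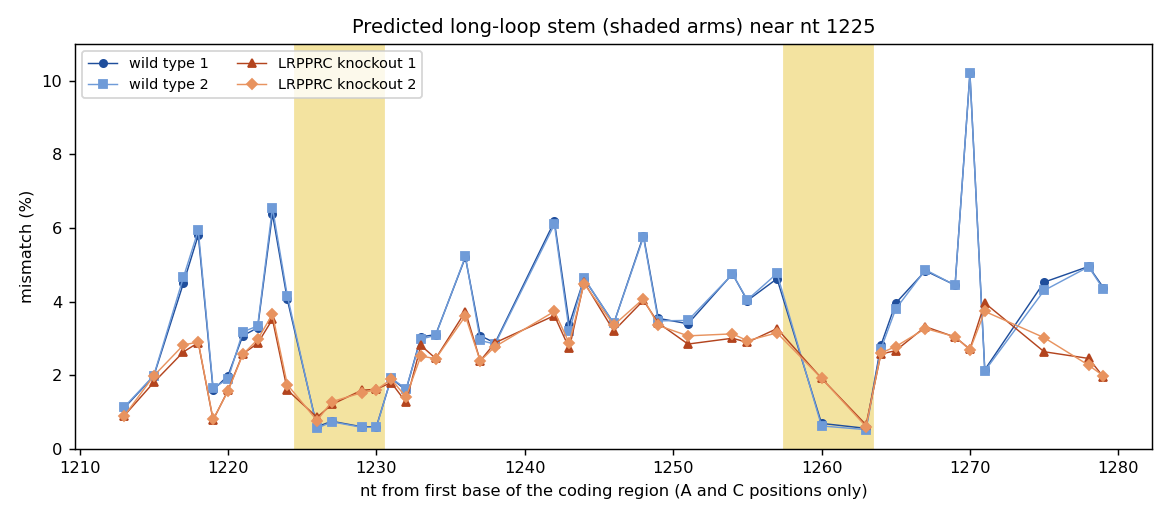
Mismatch (%) at each A and C position around the predicted long-loop stem, in nt from the first coding base, with a line per library and the 2 arms shaded. In the shaded arms knockout libraries lie above wild type, with C1260 at 1.92% against 0.69% and 0.62%, while A1270 drops from 10.20% to 2.71% and 2.69%.

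No other predicted stem rose by as much. The fold of the mRNA from sequence alone gave 47 stems of at least 4 base pairs and 3 tested positions, and the ratio of knockout to wild type had a median of 0.790 and exceeded 1 in 5 of them. After the long-loop stem the next ratio was 1.20. That was the hairpin at nt 653, with 9 base pairs and a mean pairing probability of 0.987, the highest among the unbranched hairpins of at most 30 nt. Its stem read 0.54% and 0.55% in wild type, against 0.64% and 0.67% in the knockout, while its loop went from 2.84% ± 0.029 to 1.84% ± 0.018 (n = 2 each). Its loop was thus 5.20 times its stem in wild type, against 2.81 times in the knockout. All 7 tested stem positions of this hairpin were called higher after centring. So were all 6 of the stem at nt 382, which had a ratio of 1.09. Over all tested positions the share called higher was 67.7% in the coding region and 44.9% on the heavy strand. Stems with ratios under 1 could have every tested position called higher too, as at nt 145 (6 positions, ratio 0.970) and nt 722 (6 positions, ratio 0.878). The hairpin at nt 1464 had the lowest stem mean of all in wild type, 0.51% ± 0.025, and 0.48% ± 0.019 in the knockout, with overlapping libraries. Its loop read 4.10% ± 0.12 and 3.69% ± 0.054, so the loop of this hairpin read 8.02 times its stem in wild type, against 7.67 times in the knockout. The hairpin at nt 450 had overlapping stem values of 1.73% ± 0.018 and 1.74% ± 0.016.

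The lowest ratio, 0.394, belonged to the hairpin at nt 1591 in the 3′ stretch, whose 5 tested stem positions went from 3.35% and 3.39% to 1.36% and 1.30%. All 5 positions of this hairpin's stem were called lower after centring, against 26.6% of all heavy-strand positions. It holds C1600, which fell most of all named positions, from 3.52% and 3.58% to 0.61% and 0.82% (-1.55 after centring, SE 0.14, limma adjusted p = 0.000909). The stem at nt 477 joins arms 60 nt apart and went from 3.54% and 3.41% to 1.75% and 1.73%, and its ratio was 0.50. In its 3′ arm C544, C545, C546 and C547 were all called lower after centring, with C545 going from 2.87% and 2.56% to 0.76% and 0.78% (-1.06 after centring, SE 0.075). In the 5′ arm, C482 went from 5.26% and 5.11% to 3.50% and 3.57%, which after centring was a rise of 0.09 and without centring a fall of 0.54 (limma adjusted p = 0.0307 and 5.85e-05). A477, the other tested position of that arm, stood at 1.73% and 1.69% in wild type, against 1.67% and 1.58% in the knockout. C1140, another of the positions that fell most, lies in a predicted hairpin and went from 4.37% and 4.42% to 1.47% and 1.39%.

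**Figure D5:**
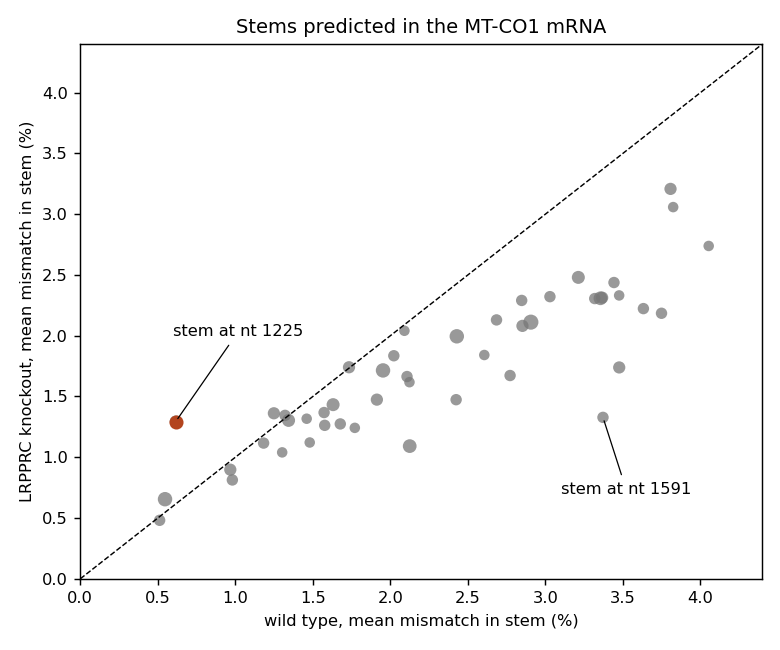
Mean mismatch (%) over the tested A and C of each of 47 predicted stems in the knockout against wild type, with marker size growing with the number of base pairs and the dashed line marking equal values. The stem at nt 1225 lies far above the line (0.62% against 1.29%) and the hairpin at nt 1591 far below it (3.37% against 1.33%).

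Over the coding region, mismatches followed the pairing predicted from sequence in both groups. Tested coding positions with an unpaired probability over 0.8 (367 positions) averaged 3.85% ± 0.029 in wild type, against 2.78% ± 0.010 in the knockout. Positions under 0.2 (106 positions) averaged 1.52% ± 0.018 and 1.22% ± 0.012. The gap between these classes narrowed from 1.42 ± 0.006 to 1.19 ± 0.023 on the log2 scale (n = 2 each), while the separation of both bases together moved by less than the replicate spread: the area under the ROC curve was 0.920 ± 0.0006 and 0.922 ± 0.0034, with overlapping libraries (exact permutation p = 0.667, adjusted 0.667). Within each base the rank correlation with unpaired probability moved in opposite directions, with no overlap between groups. Spearman's rho across positions was 0.601 ± 0.003 at C in wild type, against 0.561 ± 0.0002 in the knockout, and 0.368 ± 0.008 at A, against 0.403 ± 0.014. The positions share library and depth, so these are descriptions. The wild-type area was the second highest of the 12 mRNAs, after 0.934 in COX2. In the minimum free energy fold, unpaired C went from 4.17% ± 0.041 to 2.81% ± 0.014 and unpaired A from 3.12% ± 0.016 to 2.51% ± 0.0008. Paired C went from 2.43% ± 0.029 to 1.72% ± 0.008 and paired A from 2.44% ± 0.024 to 1.97% ± 0.019.

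The base before a C went with its level. The 121 C positions after an A averaged 4.58% ± 0.038 in wild type, against 3.27% ± 0.009 in the knockout, and the 142 after a C averaged 2.71% ± 0.039 and 1.71% ± 0.010. Their mean unpaired probabilities, 0.726 and 0.677, differed little. For A the same 2 classes lay closer together in wild type, at 3.15% ± 0.002 after an A and 2.80% ± 0.007 after a C. Codon position 3 lay close to the others. Its level minus that of codon positions 1 and 2, each base on its own mean, came to 0.010 and 0.006 in wild type, against 0.015 and 0.012 in the knockout on the log2 scale (exact permutation p = 0.333, adjusted 0.389).

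The start of the coding region was more reactive than the stretch behind it. The first 50 nt averaged 3.71% and 3.67% in wild type, against 2.66% and 2.64% in the knockout, above the following 50 nt in the same libraries (2.46% and 2.39%, then 1.90% and 1.91%). With each base on its own mean, the first 50 nt exceeded the rest of the coding region by 0.33 ± 0.004 in wild type, against 0.26 ± 0.006 in the knockout on the log2 scale (exact permutation p = 0.333, adjusted 0.389). This was the highest such value of the 12 mRNAs in wild type, and over the first 100 nt it turned to -0.11 and -0.05. The A of the start codon, A1, was low: 1.22% and 1.20% in wild type, against 1.43% and 1.35% in the knockout (0.81 after centring, SE 0.065, limma adjusted p = 0.000683; 0.18 without centring, limma adjusted p = 0.0528). C6 stood at 2.35% in both wild-type libraries and 2.09% and 2.16% in the knockout. C8 and C9 read 4.76% ± 0.037 and 4.38% ± 0.14 in wild type, against 3.02% ± 0.021 and 2.80% ± 0.21 in the knockout, and neither was called after centring (limma adjusted p = 0.682 and 0.978).

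At the other end, the A positions of the AGA stop codon changed little in percent mismatch. A1540 read 2.35% and 2.25% in wild type, against 2.13% and 2.11% in the knockout, and A1542 2.35% and 1.99% in wild type, against 1.82% and 1.97% in the knockout. Both were called higher after centring (0.52 and 0.45), and without it neither was called (-0.11 and -0.18, limma adjusted p = 0.0515 and 0.124). C1543, the first base after the stop codon, rose from 3.25% and 2.45% to 5.48% and 5.69% (1.59 after centring, SE 0.13, limma adjusted p = 0.000744; 0.96 without centring). It was the largest rise in the 3′ stretch.

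The 3′ stretch lost more reactivity than the coding region. Its A and C mean was 2.60% in both wild-type libraries and 1.63% and 1.61% in the knockout. Relative to the coding region, with each base on its own mean, it stood at -0.34 and -0.31 in wild type, against -0.57 and -0.60 in the knockout on the log2 scale (exact permutation p = 0.333, adjusted 0.389). Of its 45 tested positions, 14 were called higher and 18 lower after centring, against 44.9% and 26.6% of the heavy strand. A1612, next to the end of the stretch, went from 0.88% and 1.10% to 0.28% and 0.27% (-0.92 after centring, SE 0.14, limma adjusted p = 0.00418).

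The background of the 3′ stretch moved in the opposite direction to its A and C. Its G and T mean rose from 0.58% and 0.55% in wild type to 0.74% and 0.78% in the knockout, and the A and C mean went from 4.62 ± 0.17 to 2.14 ± 0.090 times the G and T mean. At T1558 the mismatch was 1.21% and 1.16% in wild type, against 4.27% and 4.29% in the knockout. The A paired with it in the light-strand files, inside TRNS1, read 49.6% and 42.9% in wild type, against 57.6% and 52.8% in the knockout. The heavy-strand value was 2.44% and 2.71% of that light-strand value in wild type, against 7.41% and 8.13% in the knockout. The part of light-strand RNA in the results on the 3′ stretch was not tested. Opposite the coding region, the light-strand files read 2.97% ± 0.040 at G and T in wild type, where the heavy strand has A and C, and 0.76% ± 0.008 in the knockout. At light-strand A and C they read 0.83% ± 0.005 in wild type, against 1.92% ± 0.005 in the knockout. Of the positions looked up on both strands, all those from nt 365 to nt 1271 had similar values on both strands in wild type. There the heavy-strand value was 77.0% to 117% of the light-strand value. The base paired with C495 read 9.29% and 9.39%, and that paired with A1270 read 8.74% and 9.43%. Those paired with C365 and C1140 read 9.20% and 9.63%, then 4.19% and 4.17%. In the knockout the bases paired with C495 and A1270 read 1.14% and 1.33%, then 0.91% and 0.97%. Some positions nearer the ends of the mRNA differed between strands in wild type. The base paired with A1540 read 9.58% and 12.73%, against 2.35% and 2.25% at A1540. That paired with C1600, in the 3′ stretch, read 0.74% and 0.87%, against 3.52% and 3.58% at C1600. How reads were assigned to strands is not given in the sources used here, and whether wild-type light-strand values hold heavy-strand reads was not tested.

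Runs of A held the lowest values of the mRNA. In the 7-A run at nt 789 (MT:6683-6705: tactccggAAAAAAAgaaccatt, run in capitals) the first 3 A positions averaged 0.077%, 0.068% and 0.21% in wild type, and the last 4 between 1.55% and 2.39%. In the 6-A run behind the stop codon (MT:7438-7459: atctagacAAAAAAggaaggaa, run in capitals) the first 2 averaged 0.10% and 0.12% and the last 4 between 0.82% and 1.44%. Counting deletions as well moved the first A of the 7-A run from 0.077% to 0.093% and left the others nearly where they were. The knockout had the same step, from 0.088% at the first A to 0.96% at the last A of the 7-A run. Of the 6 positions under the lower limit, 5 are in these runs, and the other is C1464, the outermost base of the hairpin at nt 1464, at 0.18% in wild type, against 0.17% in the knockout. Above the upper limit was C1125, at 92.8% and 95.3% in wild type, against 94.8% and 95.4% in the knockout, which entered no test.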

How the data were processed

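Per the file headers, the deposited values are the fraction of mismatches, and in a further column of mismatches and deletions, at each position with its base. Cutadapt and Bowtie2 are named per the submitters' processing notes. Their settings, the read filters and the build are not given in the sources used here. Each fraction was used as deposited.

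Positions, 50-nt windows (at least 8 tested positions) and 28 heavy-strand genes (at least 10) went into limma 3.58.1 under R 4.3.3 (lmFit, eBayes with trend, but no trend for the Gini index), two-sided, with Benjamini-Hochberg adjustment over the whole heavy-strand table at 0.05. Of these steps, only the fit of positions was tested on simulated data, in which few positions changed and no general fall was simulated. Pairing came from ViennaRNA 2.7.2 on the mRNA sequence alone at 37 °C. Python 3.11.15 did the rest.

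Named were the A and C of the first 3 codons and the stop codon, the 3 highest positions in wild type, the 5 that rose and the 5 that fell most among called positions without overlap, the 3 highest, lowest, most raised and most lowered called windows, 3 hairpins by pairing probability and 3 mRNAs nearest in change. The remaining items were named after their values were seen. Members and lists were chosen with earlier results of these data known. The labels call the libraries bioreplicates and say no more, so p-values measure the spread between them. Replicate numbers were not used to pair the groups in the main fit. Same-numbered deviations correlated at 0.0007 over heavy-strand positions and 0.047 over MT-CO1 coding positions. Such a correlation cannot show whether same-numbered libraries were prepared together. Alternatives changed centring, pseudocount, limits, bases, deletions, window size and libraries.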

Additional observations from a re-analysis of the deposited data

Results flagged for a closer look

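Signals outside the tested A and C positions were picked out at 3 places. C1125 read 94.02% in wild type, over the upper limit in all 4 libraries, and entered no test. The G paired with C1125 in the light-strand files read 93.4% and 92.8% in wild type, against 93.6% and 94.1% in the knockout. T1241, in the loop of the long-loop stem, read 4.22% ± 0.11 (SD, n = 2) in wild type and 1.65% ± 0.016 in the knockout, against a mean of 0.85% at T positions of the wild-type coding region. T1558, in the 3′ stretch, read 4.28% ± 0.018 in the knockout and 1.18% ± 0.034 in wild type, against a mean of 0.84% at T of that stretch in the knockout. The A paired with T1241 in the light-strand files read 4.16% ± 0.040 in wild type and 1.74% ± 0.013 in the knockout, nearly the same as T1241 itself. The cause of these values was not tested.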

How the results depend on the processing

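With 2 libraries against 2 and unknown depth, single values cannot pass an exact test, so only limma calls can be gained or lost. The scaling decides most directions: without centring the gene-level change was -0.38, coding positions called were 48 higher and 696 lower, and windows 0 higher and 31 lower. Centred on the MT-CO1 coding median, a setting chosen after seeing the data, these were 328 and 249 positions and 16 and 11 windows. With A alone 275 positions were higher and 25 lower, and with C alone 326 and 51. In these settings both the tested positions and the centring median changed. Windows of 100 nt gave 15 higher and 0 lower. There were 2 lower windows under quantile normalization, pseudocount 0.01, lower limit 0.01, A alone and C alone.

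The difference between groups at codon position 3 turned to -0.0016 with pseudocount 0.01 and -0.013 with A alone, where the levels were -0.027 in wild type and -0.040 in the knockout. With the first 100 nt the difference at the start was 0.061 and the levels -0.11 and -0.047. The ROC area difference was -0.012 with C alone and -0.00066 with deletions. The level relative to the other mRNAs was 0.046 in wild type with A alone and -0.11 in the knockout with C alone. C minus A in the knockout was 0.056 with lower limit 0.01.

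Without centring the changes were -0.31 at C365, -0.14 at C6, -0.11 at A1540, -0.18 at A1542, and -0.52, -0.47, -0.17 and -0.18 in the windows at nt 1251, 601, 51 and 1001. Centred on MT-CO1, the windows at nt 1251 and 601 stood at -0.11 and -0.053. On that scale C365 and A1542 were at 0.10 and 0.23 and no longer called (limma adjusted p = 0.0662 and 0.0740). A1612 ran from -1.55 to -0.18 over all alternatives, and its limma adjusted p reached 0.0642, so its call could be lost. C8 was at 0.00246 under quantile normalization, 0.14 with G subtracted and 0.17 with C alone. C9 was at 0.13 with G subtracted, 0.00554 with pseudocount 0.0001, 0.00127 with no lower limit, 0.17 with C alone and from -0.075 to 0.071 with a library left out. The window at nt 551 was at 0.051 with G subtracted and 0.24 with A alone, and that at nt 1251 at -0.042 with A alone. The cause was not tested.

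Leaving out each library gave gene-level changes of 0.24 to 0.26, Gini changes of -0.029 to -0.027, 509 to 578 positions higher and 79 to 127 lower, 29 to 30 windows higher and 1 lower, and mean differences of -0.87 to -0.83 percentage points. The replicate block gave a gene-level change of 0.25 and changed no call of a named position or window.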
